A study of Mus musculus with 2 samples.

Results

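Collagen chain genes were taken as every row of the deposited table whose symbol reads Col, a type number, the letter a and a chain number. They were 44 of 38396 gene rows and covered 27 collagen types. All 44 were annotated as protein-coding. By type, 9 were fibrillar (types 1, 2, 3, 5 and 11), 6 belonged to basement membrane collagen (type 4), 6 to type 6 and 23 to other types. The libraries hold RNA precipitated from lysates of epididymal white fat with an antibody to HuR, the product of Elavl1, which binds RNA. There were 2 libraries, 1 from HuRf/f mice without Cre (control) and 1 from their AdipoQ-Cre;HuRf/f littermates (HuR-FKO), all 6 weeks of age. The floxed HuR alleles were thus carried by both groups. Cre under the adiponectin promoter acts in adipocytes, and the other cells of the fat pad keep HuR. With 1 library per genotype, differences have no replicate check and no p-value was computed.

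Collagens are extracellular proteins in which alpha chains wind around each other into a helix built on a repeated glycine. Fibrillar collagens form the cables of connective tissue, type 4 forms the sheet of basement membranes, and type 6 forms beaded filaments near cells. In fat, fibroblast-like progenitors make much of the fibrillar collagen, while adipocytes and endothelial cells are each wrapped in basement membrane. HuR binds AU-rich stretches of mRNAs, commonly in the 3′ UTR, and is known for stabilising the mRNAs it binds.

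Levels are FPKM, mapped fragments scaled to transcript length and to the total of the library. Because labels and data disagree on the targeted gene on the deposited scale, libraries are named by their labels. Spacing between the lowest values put the totals near 11100000 fragments for the control-labelled library and 18500000 for the HuR-FKO-labelled library. The targeted gene Elavl1 was at 16.6 FPKM in the control-labelled library and at 26.1 FPKM in the HuR-FKO-labelled library. On this deposited scale it goes against the labels. Most other genes lay the same way and further. For the 5571 protein-coding genes that reached 5 FPKM in at least 1 library, the median gene was 4.66-fold higher in the HuR-FKO-labelled library, and the middle 50% of genes lay between 2.54-fold and 9.33-fold. Relative to that median Elavl1 lay 1.57 toward control on the log2 scale, the direction that the labels give. Collagen values are therefore also given relative to the median of all genes. Neither an input nor an IgG library was used here, so binding by HuR and abundance of the mRNA cannot be told apart, nor can fewer cells of a type and less RNA per cell.

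Because the antibody targets an AU-rich element binding protein, the 3′ UTRs of the collagen genes were searched for the sense-strand pentamer ATTTA, the core of such elements, and for the longer TTATTTATT, which contains it. Windows of 29 bases are printed below for the 6 chain genes with the most pentamers among those at 5 FPKM or more, with each ATTTA in capitals. Col6a3, which also has 1, tied with the last of them and is not shown. Sequences and coordinates come from GENCODE annotation of mm10, and every window lies in a 3′ UTR.
Col12a1, chr9:79599027-79599055, minus strand: ctgccttatattATTTAtttctgaaacaa
Col1a1, chr11:94952019-94952047, plus strand: attgctccccaaATTTAagtctcccccaa
Col3a1, chr1:45348836-45348864, plus strand: taaattccagttATTTAtttccaaacttt
Col18a1, chr10:77053007-77053035, minus strand: tttttctaaaacATTTAcaacagacttcc
Col4a1, chr8:11199125-11199153, minus strand: tatatattagtaATTTAtataggtgtcag
Col5a3, chr9:20770181-20770209, minus strand: ggtctgtggtctATTTAatttgcttcctt

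The windows of Col12a1 and Col3a1 hold the longer TTATTTATT, and those of the other 4 genes hold the pentamer alone. Col12a1 had 5 pentamers in a 3′ UTR of 2178 bases, Col1a1 had 2 in 1423 bases and Col3a1 had 2 in 959 bases. Of the 15 collagen chain genes at 5 FPKM or more, 7 (46.7%) had at least 1 ATTTA, against 64.8% of the 5498 genes with a 3′ UTR at the same level. TTATTTATT was in 2 of the 15 (13.3%) and in 6.24% of those genes. The median length of the 3′ UTR was similar, 959 bases for the collagen genes and 926 bases for all genes. A match describes letters only and does not mark a bound site.

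As a class, the fibrillar genes had the largest summed FPKM of the collagens, most of it from Col1a1. Col1a1, the alpha1 chain of type 1 collagen (mm10 chromosome 11, 94936224 to 94953042), stood at 33.3 FPKM in the control-labelled library and 308 FPKM in the HuR-FKO-labelled library. Col1a2, the alpha2 chain of the same protein (chromosome 6, 4504814 to 4541543), was at 7.45 and 21.4 FPKM. Both chains were higher in the HuR-FKO-labelled library as deposited, and Col1a1 was the most abundant collagen in either library. Among all protein-coding genes Col1a1 ranked 521 in the control-labelled library and 201 in the HuR-FKO-labelled library. Col3a1, which forms the fine reticular fibres of soft organs (chromosome 1, 45311538 to 45349706), was at 8.44 and 51.2 FPKM. Type 5 chains seed and size the fibrils of types 1 and 3. Col5a3 was at 2.90 FPKM in the control-labelled library and 20.4 FPKM in the HuR-FKO-labelled library, Col5a1 at 1.58 and 5.60 FPKM, and Col5a2 at 1.24 and 2.70 FPKM. The type 5 chains thus stood in the same order in both libraries, with Col5a3 highest and Col5a2 lowest. The cartilage gene Col2a1 was near the bottom, at 0.0194 and 0.337 FPKM, and Col11a1 and Col11a2 were listed at 0 in both.

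**Figure D1:**
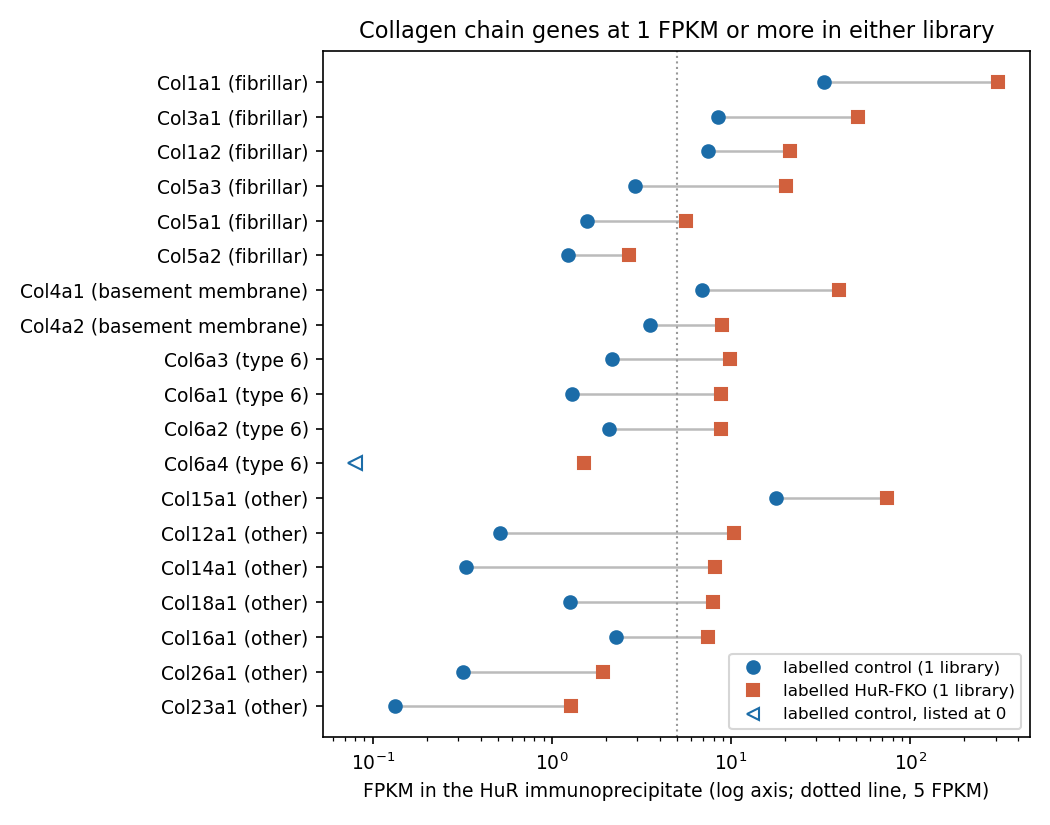
FPKM (log axis) of the 19 collagen chain genes that reached 1 FPKM in at least 1 library, with circles for the control-labelled library, squares for the HuR-FKO-labelled library and an open triangle for Col6a4, listed at 0. Each square lies to the right of its circle on the deposited scale, and the Col1a1 pair (33.3 and 308 FPKM) lies furthest right. Median centring turns Col15a1, Col16a1, Col1a2, Col4a2, Col5a1, Col5a2 and Col6a2.

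Basement membrane collagen was represented by Col4a1 and Col4a2, the chains that most tissues pair in this protein. Col4a1 (chromosome 8, 11198423 to 11312826) was at 6.86 FPKM in the control-labelled library and 40.0 FPKM in the HuR-FKO-labelled library. Col4a2 (11312805 to 11449287 on the same chromosome) was at 3.54 and 8.85 FPKM. The genes lie head to head and share 22 bases at their starts, so few reads can be ambiguous between them. The chains of the kidney filter were low, with Col4a3 at 0.0757 and 0.766 FPKM and Col4a4 at 0.0179 and 0.773 FPKM. Col4a5 was 1 of the 2 collagen genes above 0 in both libraries that were higher in the control-labelled library, at 0.273 against 0.229 FPKM. Col4a6 was listed at 0 in both.

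Type 6 chains of the usual filament stood close together. In the HuR-FKO-labelled library, Col6a1 was at 8.83, Col6a2 at 8.75 and Col6a3 at 9.85 FPKM. In the control-labelled library they were at 1.30, 2.08 and 2.16 FPKM. Col6a3 carries the end piece from which the fat-derived peptide endotrophin is cut. The alternative type 6 chains were scarce. Col6a4 was at 1.51 FPKM in the HuR-FKO-labelled library and listed at 0 in the control-labelled library, and Col6a5 was at 0.131 FPKM and listed at 0. Col6a6 went the other way, at 0.0524 FPKM in the control-labelled library and listed at 0 in the HuR-FKO-labelled library.

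Of the remaining types, Col15a1 was the second most abundant collagen gene in both libraries, at 17.9 FPKM in the control-labelled library and 74.1 FPKM in the HuR-FKO-labelled library. Its protein, a multiplexin, bridges basement membrane and fibrils. The other multiplexin gene, Col18a1, whose protein releases endostatin, was at 1.26 and 7.94 FPKM. Its span also contains part of Slc19a1, at 0.343 FPKM and listed at 0. The FACIT collagens sit on the surface of fibrils. Col12a1 was at 0.514 FPKM in the control-labelled library and 10.5 FPKM in the HuR-FKO-labelled library, Col14a1 at 0.333 and 8.11 FPKM, and Col16a1 at 2.29 and 7.46 FPKM. The first and second of these were the lowest in the control-labelled library of all collagen genes that reached 5 FPKM in either. Col26a1 was at 0.318 and 1.92 FPKM, and Col23a1, a transmembrane collagen, at 0.132 and 1.27 FPKM.

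No other collagen gene reached 1 FPKM in either library. In all, 26 of the 44 genes were above 0 in both libraries, and 24 of these were higher in the HuR-FKO-labelled library as deposited. The exceptions were Col4a5 and the short-chain collagen gene Col8a1, at 0.240 against 0.232 FPKM, which is about 13.6 and 21.9 fragments. Most genes lay toward HuR-FKO, with 82.4% of the 5571 genes at 5 FPKM or more at least 2-fold higher there. The shares of all genes above 0, or listed at 0, are not given here. A further 7 genes were listed at 0 in the control-labelled library alone, 2 in the HuR-FKO-labelled library alone (Col13a1, at 0.183 FPKM in the other, and Col6a6), and 9 in both. The last group held Col10a1 of growth-plate cartilage and Col17a1 of skin. An exact 0 can be a failed estimate, since the macrophage gene Cd68 was also listed at 0 in both libraries. Low values rest on very few fragments, near 1.10 for Col2a1 in the control-labelled library and 1.03 for Col7a1, the anchoring fibril gene of skin, in the HuR-FKO-labelled library.

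The comparison between the libraries asked whether collagen mRNAs were recovered differently by the HuR antibody from control and HuR-FKO fat. In all, 15 of the 44 genes reached 5 FPKM in either library, 5 of them in the control-labelled library and 15 in the HuR-FKO-labelled library. All 15 were at least 2-fold higher in the HuR-FKO-labelled library as deposited, where 82.4% of the 5571 genes were, and none was at least 2-fold higher in the control-labelled library, where 3.21% were. Their direction rests on the scaling, and 6 of the 15 turned after median centring. That centring added 2.15 to each log2 ratio, whereas the median of all genes was -2.22. Since 10 of the 15 passed the level of 5 FPKM through the HuR-FKO-labelled library alone, the count had to lean toward HuR-FKO. The same held for 3160 of the 5571 genes (56.7%). Their median was 5.83-fold against 4.66-fold for all genes, with 8 of the 15 beyond the median of all genes toward HuR-FKO and 7 on the side of control.

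Single collagen genes spread widely around that median. Col14a1 was 24.4-fold higher in the HuR-FKO-labelled library and Col12a1 20.3-fold higher, which is 5.24-fold and 4.36-fold beyond the median of all genes. These were the only ones of the 15 at least 2-fold beyond it, whereas 25% of the 5571 genes were. Col1a1 lay just inside that limit. Fragment counts estimated from FPKM, length and total gave 95% intervals that cover counting error only, 16.2 to 38.0 for Col14a1 and 15.8 to 26.3 for Col12a1. The value of Col14a1 in the control-labelled library corresponds to about 23.8 fragments and that of Col12a1 to about 65.7. With a pseudocount of 1 FPKM their log2 ratios of control over HuR-FKO went from -4.61 to -2.77 and from -4.35 to -2.92, and Col1a1, at -3.17, then lay furthest toward HuR-FKO. Among all 5571 genes, 9.94% had a ratio further toward HuR-FKO than Col14a1 and 11.9% further than Col12a1. Both proteins are FACIT collagens, yet Col16a1 of the same family was only 3.25-fold higher (interval 2.69 to 3.93), on the other side of the median.

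Col1a1 was 9.26-fold higher in the HuR-FKO-labelled library (interval 8.87 to 9.67) and 1.99-fold beyond the median of all genes. Its value rests on about 2189 and 33782 fragments. At the opposite end, Col4a2 was 2.50-fold higher (2.18 to 2.87) and Col1a2 2.87-fold higher (2.59 to 3.19), which is 1.87-fold and 1.62-fold toward control relative to that median. Both turn under median centring and upper-quartile scaling. Col5a2, the highest of the genes below the level of 5 FPKM, was 2.18-fold higher as deposited and lay 2.14-fold toward control, while Col5a1, the lowest above it at 5.60 FPKM, was 3.55-fold higher. Col16a1 apart, the remaining genes ranged from 3.55-fold for Col5a1 to 7.03-fold for Col5a3 (6.08 to 8.17).

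**Figure D2:**
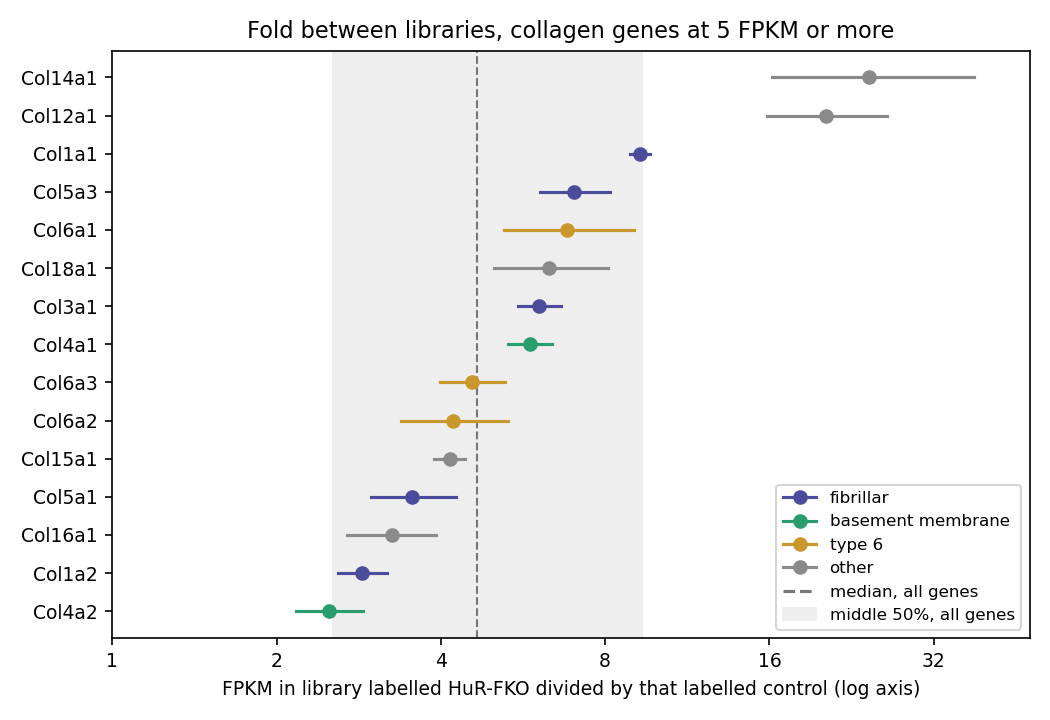
FPKM in the HuR-FKO-labelled library divided by FPKM in the control-labelled library (log axis) for the 15 collagen chain genes at 5 FPKM or more, with lines for 95% counting intervals and colours for the classes. Col14a1 and Col12a1 lie to the right of the grey band, the middle 50% of all genes (2.54 to 9.33), and Col4a2 at 2.50 lies at its left edge. Median centring turns the 6 lowest folds, from Col4a2 to Col6a2.

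By class, log2 ratios (control divided by HuR-FKO) had a median of -2.60 for the 5 fibrillar genes that reached 5 FPKM, -1.93 for the 2 type 4 genes, -2.19 for the 3 type 6 genes and -2.66 for the 5 genes of other types, against -2.22 for all genes. Fibrillar genes spanned -3.21 to -1.52 and genes of other types -4.61 to -1.70, so the classes overlapped. Col4a2, Col5a1, Col5a3, the 3 type 6 genes and all genes of other types except Col15a1 reached 5 FPKM in the HuR-FKO-labelled library alone. Their ratios as deposited therefore had to lie toward HuR-FKO, and the classes held unlike shares of such genes. After median centring, which added 2.15 to each ratio, the type 4 median turned (0.22), and that of each other class kept its sign. Relative to the median of all genes itself, type 6 lay at 0.028, also on the side of control.

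Values within 1 library do not depend on scaling between libraries, and chains that assemble together differed there. The quotient of Col1a1 over Col1a2 was 4.47 in the control-labelled library (interval 4.03 to 4.96) and 14.4 in the HuR-FKO-labelled library (13.8 to 15.1), 3.23 times as high. The intervals did not overlap. Col4a1 over Col4a2 went the same way, with 1.94 (1.66 to 2.26) in the control-labelled library and 4.52 (4.23 to 4.83) in the HuR-FKO-labelled library. Alpha1 chains outnumber alpha2 chains in the proteins of both types. Single genes differed widely between the libraries, with an SD of 1.88 for the log2 ratio over all 5571 genes. How often other pairs of genes shift as far is not given here.

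The other trimers shifted less. Col5a1 over Col5a2 was 1.28 (0.974 to 1.67) in the control-labelled library and 2.08 (1.83 to 2.36) in the HuR-FKO-labelled library. Col6a1 over Col6a2 was 0.625 (0.442 to 0.876) and 1.01 (0.905 to 1.13), also without overlap of the intervals. For Col6a3 over Col6a2 the intervals overlapped, with 1.04 (0.813 to 1.34) and 1.13 (1.03 to 1.23). Replicate spread is unknown, so an interval that does not overlap compares these 2 libraries and not the genotypes.

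**Figure D3:**
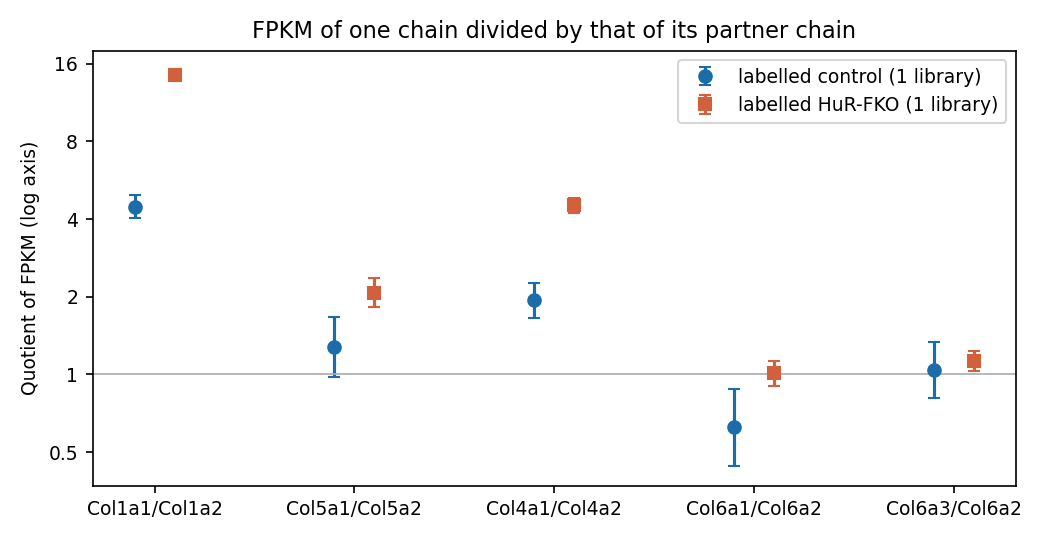
FPKM of 1 collagen chain divided by that of a partner chain in the same library (log axis), with circles for the control-labelled library, squares for the HuR-FKO-labelled library and bars for 95% counting intervals. Col1a1/Col1a2 stands at 4.47 and 14.4 and Col4a1/Col4a2 at 1.94 and 4.52, while the bars of Col6a3/Col6a2 overlap near 1.

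The pentamer did not follow the chain quotients throughout. Col1a1 and Col4a1 hold ATTTA in the 3′ UTR windows printed above, whereas the 3′ UTRs of Col1a2 and Col4a2 hold none. In type 5 it was the reverse, since Col5a1 has none and Col5a2 has 6, and Col6a1 and Col6a2 both have none. Col6a3 has 1, yet Col6a3 over Col6a2 shifted least of the pairs, 1.08 times as high in the HuR-FKO-labelled library. Across the 15 genes, the 7 with the pentamer had log2 ratios of control over HuR-FKO from -4.35 to -2.19 (median -2.66). The 8 without it ranged from -4.61 to -1.32 (median -1.94). Among all genes at this level the medians were nearly the same, -2.20 for 3565 genes with ATTTA and -2.25 for 1933 without. The split of the collagen genes was made after their values were seen and has no test.

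The make-up of the collagen total can also be read within each library. Summed over the 44 genes, collagen stood at 94.5 FPKM in the control-labelled library and 605 FPKM in the HuR-FKO-labelled library, 6.40-fold as deposited. Without Col1a1 the fold was 4.84, close to the median of all genes. Col1a1 alone made up 35.2% of collagen FPKM in the control-labelled library and 50.9% in the HuR-FKO-labelled library. The share of Col15a1 was 18.9% and 12.3%, and that of Col1a2 was 7.88% and 3.53%. All fibrillar genes together had 58.1% and 67.7%, but without Col1a1 they had 35.3% and 34.2% of the rest. Basement membrane genes had 11.4% and 8.37%, and type 6 genes 5.90% and 4.81%. Col1a1 was thus the gene whose share differed most between the libraries.

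**Figure D4:**
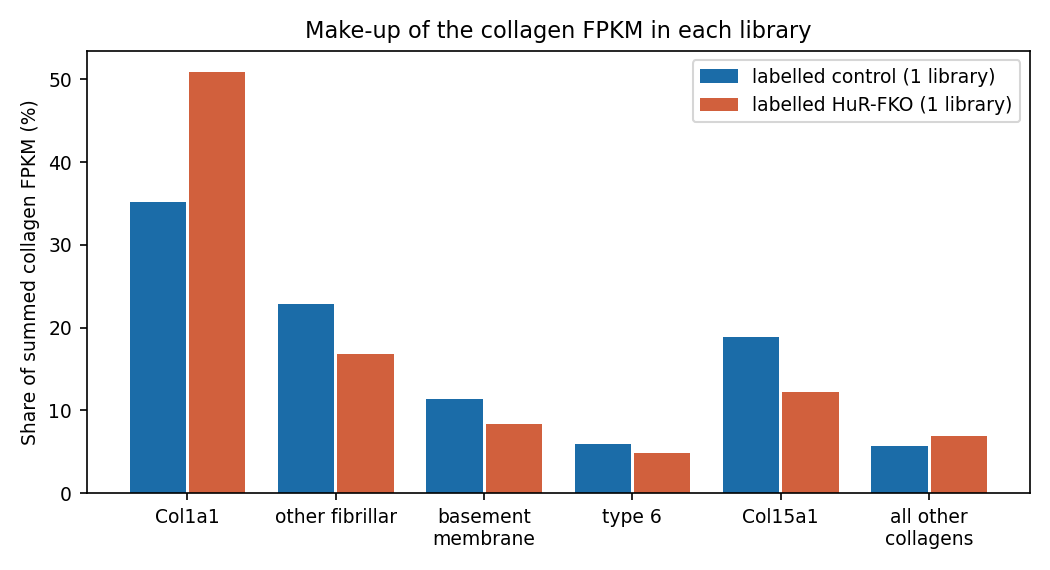
Share of the summed FPKM of the 44 collagen chain genes (percent, bars from 0) taken by Col1a1, the other fibrillar genes, type 4, type 6, Col15a1 and all other collagens in each library. Col1a1 stands at 35.2% in the control-labelled library and 50.9% in the HuR-FKO-labelled library, and Col15a1 at 18.9% and 12.3%.

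The collagen transcripts differed from all genes by median in length and GC content, features that the choice of genes did not use. For the 15 genes the longest coding transcript had a median of 5930 bases against 2347 bases for all genes, and a median GC content of 57.7% against 50.6%. The values of these 15 genes rest on at least 23.8 fragments in the control-labelled library and 639 in the HuR-FKO-labelled library. Across all genes, the ratio of control over HuR-FKO was hardly related to length (Spearman's rho -0.09) or GC content (-0.09) over 5567 genes, given as a description across genes of the same libraries. Col14a1 and Col12a1, the genes furthest toward HuR-FKO without a pseudocount, had GC contents of 49.7% and 48.3%, the lowest among the 15 together with Col3a1 at 52.5%.

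Genes that fold, modify and crosslink collagen were read from a list of 33, of which 11 reached 5 FPKM. In 10 of the 11 the value was at least 2-fold higher in the HuR-FKO-labelled library, as it was in 82.4% of all genes at this level, and the log2 ratio, control divided by HuR-FKO, had a median of -2.47 against -2.22 for all genes. P4hb, a subunit of the prolyl hydroxylase that stabilises the helix, was at 70.4 and 392 FPKM. Serpinh1, the collagen chaperone HSP47, was at 41.1 and 94.6 FPKM. Crtap, a partner of prolyl 3-hydroxylase, was at 15.6 and 37.2 FPKM. Pcolce, which speeds the trimming of procollagen ends, was the gene under 2-fold, at 9.0 and 14.2 FPKM. Serpinh1 and Crtap thus lay nearer to Col1a2 (2.87-fold) than to Col1a1 (9.26-fold), at 2.30-fold and 2.39-fold.

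Among other basement membrane genes, 7 of 16 reached 5 FPKM, all at least 2-fold higher in the HuR-FKO-labelled library (median log2 ratio -2.49), against 82.4% of all genes (median -2.22). Sparc, which binds collagen and escorts type 4, was at 174 and 979 FPKM. The laminin chain gene Lamc1 was at 2.61 and 17.1 FPKM, the perlecan gene Hspg2 at 1.44 and 17.4 FPKM, and the nidogen gene Nid1, which links laminin to type 4 collagen, at 4.78 and 12.2 FPKM. Of these 4 genes Hspg2 was the furthest, 12.1-fold. The laminin chain gene Lamb2, named after its value was seen, was further at 31.2-fold, from 0.233 to 7.29 FPKM.

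Partners of the fibrils differed among themselves. Of 17 listed genes 9 reached 5 FPKM, all at least 2-fold higher in the HuR-FKO-labelled library, against 82.4% of all genes. Their median log2 ratio of -1.78 lay on the control side of that of all genes (-2.22). Biglycan (Bgn) was at 11 and 273 FPKM, 24.7-fold and level with Col14a1. Its relative decorin (Dcn), which also coats fibrils, was at 107 and 222 FPKM, 2.08-fold, and lumican (Lum) at 9.02 and 19.3 FPKM. The microfibril gene Mfap5 was at 5.17 and 30.4 FPKM. Of 10 collagen receptors only Itgb1, the shared beta chain of collagen-binding integrins, reached 5 FPKM, at 4.37 and 18.6 FPKM. The receptor kinases Ddr1 (0.187 and 3.84 FPKM) and Ddr2 (0.156 and 3.04 FPKM) and the uptake receptor Mrc2 (0.420 and 2.50 FPKM) were scarcer.

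Cell type markers in the same libraries showed fat. All 8 adipocyte markers were above 0, and their sum was 8763 FPKM in the control-labelled library and 29482 FPKM in the HuR-FKO-labelled library. Fibroblast and progenitor markers, the cells that make fibrillar collagen, summed to 51.8 and 167 FPKM over 8 genes. Within that list Ly6a was at 12.2 and 59.3 FPKM, Dpt at 13.7 and 39.9 FPKM, Pi16 at 3.38 and 29 FPKM and Cd34 at 17.6 and 13.9 FPKM. The defining marker Pdgfra was low and lay the other way, at 0.512 and 0.170 FPKM, and Dpp4 was listed at 0 in the control-labelled library. The 7 endothelial markers summed to 29.8 and 66.2 FPKM, 7 mural markers to 17.1 and 73.5 FPKM, 5 macrophage markers to 7.73 and 17 FPKM and 5 mesothelial markers to 3.19 and 16.4 FPKM. Each of these sums was higher in the HuR-FKO-labelled library as deposited, as were the collagen sum and the median of all genes (4.66-fold). For markers at 5 FPKM or more, median log2 ratios (control over HuR-FKO) were compared with -2.22 for all genes. On the control side lay adipocyte (-1.99, 8 genes), mural (-2.07, 2 genes), endothelial (-1.32, 3 genes) and macrophage markers (-1.02, 2 genes). Fibroblast and progenitor markers lay slightly toward HuR-FKO (-2.28, 5 genes), and mesothelial markers were level with all genes (-2.22, 2 genes). The part of cell make-up in the collagen values was not tested. The 3 epididymal epithelium markers were listed at 0 in both libraries, and of the skeletal muscle markers only Myh4 had a value, 0.0712 FPKM in the control-labelled library.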

How the data were processed

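RNA immunoprecipitated with anti-HuR from epididymal fat was sequenced, and the authors deposited FPKM per gene for both libraries in 1 table. The submitters' processing notes name TopHat2 2.0.11, Cufflinks 2.1.1 and mm10. Annotation, strand setting and pooling of animals for these libraries are not given in the sources used here. Because FPKM is relative to the library total, abundant RNAs lower all others.

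Groups came from the genotype labels. Rows were joined to GENCODE by gene identifier (36489 matched, 1907 not), and starts counted from 0 were shifted by 1. For log2 ratios, 0.1 FPKM was the lowest value allowed. Ratios used protein-coding genes that reached 5 FPKM in at least 1 library, floor and filter following the study's supplementary tables. Folds are plain quotients of FPKM. No test was possible without replicates.

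Depth was read from 1-fragment steps. For genes with 1 transcript longer than 1500 bases, the total at which a value equals 1 fragment was binned (bins of 3%, fragments of 200 bases), and the highest total whose bin held at least 0.5 of the fullest was taken, a rule set after the values were seen. It held 42 of 205 genes for control and 21 of 135 for HuR-FKO, against at most 7 and 3 near 2 times that total, so fragments per gene were not recovered exactly. Estimated fragments use the longest coding transcript, and Clopper-Pearson 95% intervals on them are approximate and cover counting error only. The procedure was tested on simulated data. For the totals, these data used the same transcript lengths and fragments of 200 bases that the procedure assumes, so those assumptions were not tested.

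The 3′ UTR was the longest annotated for each gene. Members named are those at 1 FPKM or more in either library, including any listed at 0 in the other, plus up to 4 genes per list by mean FPKM. Other low members were named after their values were seen, as were Lamb2, Plod3, Mia3, P3h2, P4ha1, P4ha2, Loxl1, Loxl2, Pdgfra, Dpp4, Cd68 and Myh4. Members and lists were chosen with earlier results of these data known. Protein sequences were not analysed here, nor was 1 skeletal muscle marker. Python 3.11.15, pandas 2.3.3, scipy 1.17.1 and matplotlib 3.10.9 were used. Alternatives varied the floor, filter, scaling and members.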

Additional observations from a re-analysis of the deposited data

How the results depend on the processing

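The log2 ratios below are control over HuR-FKO. Scaling decided direction. Median centring added 2.15 to every ratio, upper-quartile scaling 1.98 and TPM -1.36. The 2.15 does not match the median of all genes at 5 FPKM or more (-2.22). Counts after centring therefore differ from counts relative to that median. After median centring 3 genes stayed 2-fold or more above control, the medians were -0.39 for all collagen genes, -0.45 for fibrillar, -0.042 for type 6 and -0.51 for other genes, and type 4 (0.22), Col15a1 (0.097), Col16a1 (0.45), Col1a2 (0.63), Col4a2 (0.83), Col5a1 (0.32) and Col6a2 (0.074) turned. After upper-quartile scaling 3 genes stayed, the medians were -0.57, -0.62, -0.22 and -0.68, and type 4 (0.043), Col16a1 (0.27), Col1a2 (0.45), Col4a2 (0.65) and Col5a1 (0.15) turned. On TPM the medians were -3.91 for all collagen genes, -3.96 for fibrillar, -3.29 for type 4, -3.55 for type 6 and -4.02 for other genes.

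A filter of 20 FPKM left 6 genes, all at least 2-fold higher in HuR-FKO, with medians of -2.54 for type 4 and -2.05 for other genes. With no filter all 44 genes entered and 29 were at least 2-fold higher, with medians of -1.79 for all collagen genes (-1.01 relative to all genes), -1.75 for fibrillar and -1.70 for other genes. Genes at or near 0 then also enter the median of all genes, so -1.01 is not comparable with the -0.32 at 5 FPKM. The share of all genes at least 2-fold higher is given for the filter of 5 FPKM only (82.4%). A pseudocount of 1 moved the median of other genes to -1.99, Col14a1 to -2.77, Col12a1 to -2.92, Col18a1 to -1.99 and Col6a1 to -2.10, which takes Col14a1 and Col12a1 behind Col1a1 (-3.17). Without genes that overlap another annotated gene 4 remained, all at least 2-fold higher, with -3.21 for fibrillar and -1.70 for other genes. A pseudocount of 0.1, a filter of 1 FPKM and leaving out genes listed at 0 moved none of these values by over 1.5-fold. No paired analysis was possible because each genotype had 1 library, and no replicate could be left out.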
